A study of Homo sapiens with 8 samples.

Results

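The genes described here are 10 transcription factors that set the erythroid and megakaryocyte programmes of blood: GATA1, GATA2, KLF1, TAL1, LYL1, LMO2, NFE2, ZFPM1, GFI1 and GFI1B. They were chosen by name, with earlier results of these data known. Each is read at 1 probe set, the brightest on average (mean log2 value) of those annotated to that gene alone. All 10 were among the 14162 genes tested, and 18 of their 19 probe sets passed the filter on low signals. The series holds 8 Affymetrix arrays of cells labelled HEL, a human erythroleukaemia line that carries an activating JAK2 mutation and has erythroid and megakaryocytic traits. CEP701 (lestaurtinib, an inhibitor of JAK2 and FLT3) at 0.5 µM for 16 h was profiled on 2 arrays and its vehicle DMSO on 2, called here the drug arm. The shRNA arm has 2 arrays of a stable line with a pLKO lentivirus expressing an shRNA against PRMT5, an arginine methyltransferase, and 2 of cells carrying a scramble shRNA. The labels do not say whether replicates were separate cultures, so p-values measure the spread between these arrays, which may be technical, and 2 arrays a group limit the precision of every value.

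In blood progenitors these proteins act as a network. GATA1 and GATA2 are zinc finger proteins that bind GATA sequences, GATA2 in stem cells and early progenitors and GATA1 as red cells and megakaryocytes mature. TAL1 and its relative LYL1 bind E-boxes beside GATA sites in a complex that LMO2 bridges, ZFPM1 (FOG1) is the cofactor that GATA1 needs, KLF1 switches on red cell genes, and NFE2 serves platelet formation and globin expression. GFI1 and GFI1B are related zinc finger repressors, GFI1B mainly of erythroid and megakaryocyte cells and GFI1 mainly of granulocytes and stem cells.

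Signals are deposited MAS5 values on a linear scale. Tests compare log2(signal + 10) in 1 limma fit of the 4 groups over all 14162 genes, with Benjamini-Hochberg adjusted p-values and a threshold of 0.05, and folds carry the added 10. Pearson's r between arrays across genes was 0.964 to 0.978 within a group and 0.804 to 0.845 between arms. PRMT5 was lower on the shRNA arrays, at 664 and 315 against 1794 and 984 with scramble, and missed the threshold (adjusted p = 0.217). The 2 scramble arrays differed 1.81-fold. Across the arms, PRMT5 was 2.49-fold lower with scramble than with DMSO, where it read 3419 and 3221 (adjusted p = 0.0120). That comparison called 45.8% of all genes. RNA quality was read from the actin controls, whose 5' probe signal over 3' probe signal was 0.116 and 0.161 with CEP701, 0.199 and 0.198 with DMSO, 0.141 and 0.179 with scramble and 0.187 and 0.335 with PRMT5 shRNA. Its part in the results was not tested. In these bulk samples fewer cells of a type and less RNA per cell cannot be told apart.

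The arms differed in cell type markers although both carry the label HEL. The 4 measured erythroid markers (of 6 listed) summed to 9804 to 12432 on the drug arm's arrays and to 932 to 1949 on the shRNA arm's. The drug arm's sum is nearly all HBE1, the embryonic beta-like globin, at 9433 to 11721, beside 298 to 786 in the shRNA arm. EPOR lay the other way, at 205 to 540 and at 541 to 723, and ALAS2 overlapped, at 17.4 to 144 and at 19.6 to 383. With scramble against DMSO, 1 of the 4 was higher and 1 lower (median log2 difference -0.34). The 13 measured monocyte and granulocyte markers (of 14) summed to 5832 to 9630 in the drug arm and to 67871 to 109334 in the shRNA arm. MPO, the peroxidase of granulocyte precursors, was at 4.13 to 63.5 on the drug arm's arrays and at 10913 to 20593 on the shRNA arm's. The 6 measured mast cell and basophil markers (of 7) summed to 11246 to 14324 and to 85178 to 155356, with the tryptase TPSAB1 at 56.4 to 113 and at 9938 to 24174. Against DMSO, 11 of the 12 monocyte and granulocyte markers that passed the filter were higher with scramble, as were all 6 mast cell and basophil markers. Megakaryocyte markers (5 of 6 measured) summed to 11458 to 11797 and to 29622 to 63979. The shRNA arm's sum is mostly PF4, at 21810 to 45436, beside 1054 to 1980 in the drug arm, where ITGA2B makes up most. ITGA2B overlapped, at 6645 to 8165 and at 5285 to 10139, as did GP9, at 737 to 1053 and at 369 to 1364, and 2 of the 5 were higher with scramble. Lymphocyte markers (12 of 13) summed to 1854 to 2683 and to 3653 to 7470 through NKG7 alone, at 189 to 263 and at 2615 to 6310. CD2 lay the other way, at 854 to 1234 and at 98.3 to 168, and the list's median difference between the controls was -0.37, with 3 of 11 higher and 1 lower. Epithelial and fibroblast markers (11 of 11) summed to 1956 to 2178 and to 3339 to 6657, with 4 of 10 higher and 2 lower. EPCAM was at 23.3 to 49.8 and at 484 to 2753, and CDH1 at 2.30 to 17.2 and at 485 to 2605. KRT19 was at 1.54 to 4.52 and at 525 to 2517. KRT18 lay the other way, at 1259 to 1385 and at 215 to 274. Arm, lentivirus, cell state and the identity of the cells cannot be told apart in any comparison across arms, and whether both arms hold the same cells was not tested, so the comparisons within an arm come first.

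**Figure D1:**
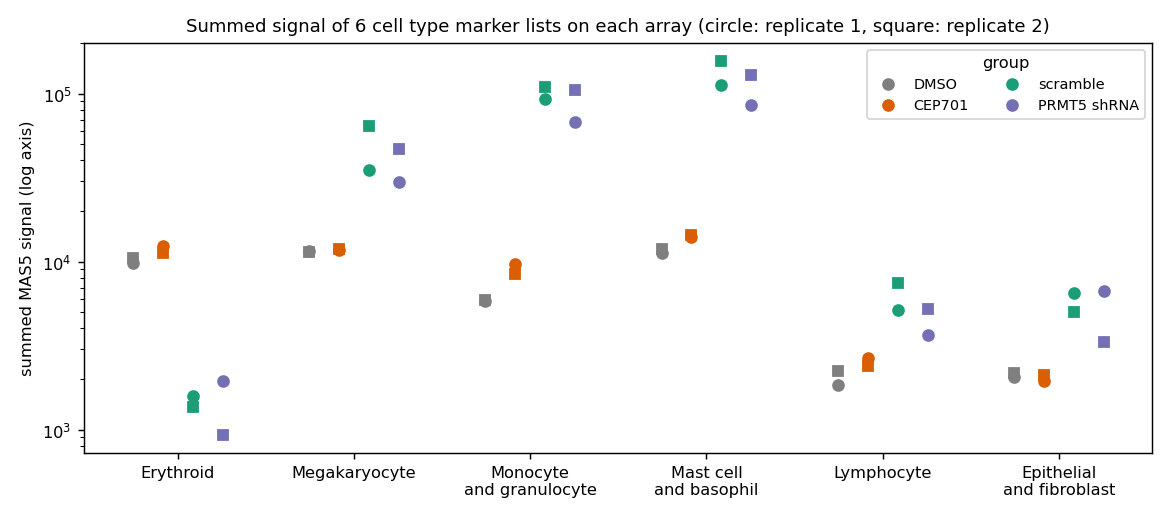
Summed MAS5 signal (log axis) of 6 cell type marker lists on each of the 8 arrays, with 1 point per array and groups by colour. The sums lie lower in the shRNA arm for the erythroid list, where HBE1 dominates the drug arm's sum, and higher for the other 5. PF4 dominates the shRNA arm's megakaryocyte sum and NKG7 its lymphocyte sum.

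CEP701 moved the GFI1 and GFI1B repressors in opposite directions. GFI1 rose and GFI1B fell, while none of the other 8 factors passed the test. Over all genes 5.78% passed in this comparison, 3.74% higher and 2.04% lower, and the members' 2 calls were 1 in each direction. The members' median log2 difference was 0.155, and that of all genes 0.10.

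GFI1B was measured at 3273 and 3747 with DMSO and at 1453 and 1502 with CEP701. The groups did not overlap, and the drug arrays lay close together. GFI1B fell 2.36-fold, from a mean of 3510 ± 336 to 1478 ± 34.8 (SD, n = 2), a log2 difference of -1.24 ± 0.15 (SE; limma adjusted p = 5.04e-03), and ranked 37 of 14162 genes by p. Its other probe set, 208501_at, read 589 and 697 with DMSO against 133 and 213 with CEP701, and it fell as well (log2 difference -1.86; adjusted p = 0.0145 over all probe sets kept). The difference was -1.17 and -1.31 between arrays of the same replicate number.

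GFI1 was measured at 119 and 201 with DMSO and at 787 and 696 with CEP701. Every drug array lay above both vehicle arrays, and the vehicle arrays differed 1.64-fold between themselves. GFI1 rose 4.55-fold, from 160 ± 58.3 to 742 ± 64.5 (SD, n = 2), a log2 difference of 2.19 ± 0.43 (SE; limma adjusted p = 0.0252). It has 1 probe set here. Both calls rest on few arrays. Without any single array of the drug arm GFI1 lost its call (log2 difference 1.83 without DMSO replicate 1, 2.54 without DMSO replicate 2, 2.10 without CEP701 replicate 1 and 2.27 without CEP701 replicate 2; adjusted p = 0.112 to 0.164), as it did under quantile normalization (1.99; adjusted p = 0.0516) and with no trend in the variance (adjusted p = 0.0894). GFI1B lost its call without CEP701 replicate 1 (-1.22), CEP701 replicate 2 (-1.26) or DMSO replicate 2 (-1.14). Each fit without a drug arm array leaves 1 array in a group, and far fewer of all genes passed there than in the main fit.

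**Figure D2:**
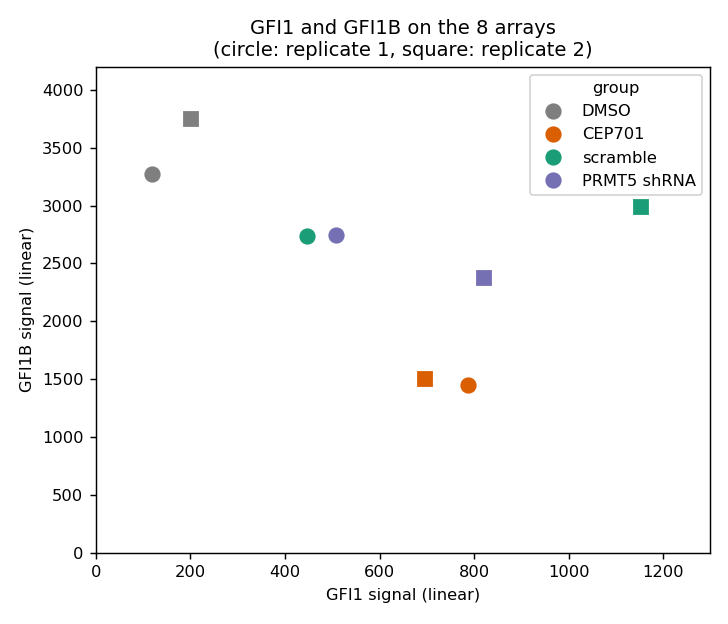
Signal of GFI1 (x) against GFI1B (y), both linear MAS5 signals starting at 0, with 1 point per array and groups by colour. The 2 CEP701 arrays lie low for GFI1B (1453 and 1502) and the 2 DMSO arrays low for GFI1 (119 and 201), and the shRNA arm's arrays keep GFI1B at 2378 to 2986.

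LYL1 was measured at 5918 and 5743 with DMSO and at 8322 and 7921 with CEP701, without overlap. Its log2 difference of 0.48 ± 0.14 (SE) missed the threshold (adjusted p = 0.0818). The shRNA arm's arrays spread more than the drug arm's, and they enter the same estimate of error. With a replicate block in the shRNA arm, which removes the spread between its pairs, LYL1 passed (adjusted p = 8.74e-03), as did 22.3% of all genes. On the drug arm's 4 arrays alone LYL1 passed (adjusted p = 5.25e-03), as did 3492 of 12487 genes. It also passed without scramble replicate 1 or 2 (log2 difference 0.48 in both).

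KLF1 was measured at 1764 and 1984 with DMSO and at 2754 and 2626 with CEP701, again without overlap. The log2 difference was 0.52 ± 0.43 (SE; adjusted p = 0.495). It passed with that replicate block (adjusted p = 0.0140, SE 0.13) and on the drug arm's 4 arrays alone (adjusted p = 7.14e-03). The first of these fits called 22.3% of all genes and the other 3492 of 12487 genes. Under scaling to the spiked poly-A controls the all-gene median difference was -0.52 in place of 0.10. On that scale LYL1 stood at -0.17 and KLF1 at -0.13, which is 0.34 and 0.39 above the median of all genes, against 0.38 and 0.42 above it on the scale as deposited. GFI1 and GFI1B kept their directions on every scale tried, at 2.08 above and 1.37 below that median (-1.37) under the poly-A scaling.

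The other 6 factors had log2 differences of -0.21 to 0.18. GATA1 was measured at 1794 and 2023 with DMSO and at 2121 and 2196 with CEP701 (log2 difference 0.18; 95% interval -0.21 to 0.57). GATA2 overlapped, at 7018 and 7819 against 7615 and 8646 (0.13; 95% interval -0.25 to 0.51). TAL1 overlapped too, at 8367 and 8919 against 8721 and 8694 (0.01; 95% interval -0.29 to 0.31). LMO2 was at 4465 and 4674 against 4127 and 4133 (-0.15; 95% interval -0.50 to 0.20). NFE2 was at 2936 and 3042 against 3539 and 3240 (0.18; 95% interval -0.18 to 0.54), and ZFPM1 at 789 and 946 against 626 and 890 (-0.21; 95% interval -0.74 to 0.32). A 2-fold change lies outside all 6 of these intervals. Under the poly-A scaling, with its median of -0.52, LMO2 passed (-0.79, adjusted p = 0.0373). That scaling called 3054 of 14162 genes lower and 122 higher. Relative to the all-gene median LMO2 stood at -0.28 there and at -0.24 on the scale as deposited. The arrays of the groups did not overlap for 7 of the 10 members, 5 higher and 2 lower, beside 62.0% of all genes, 36.3% higher and 25.7% lower.

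**Figure D3:**
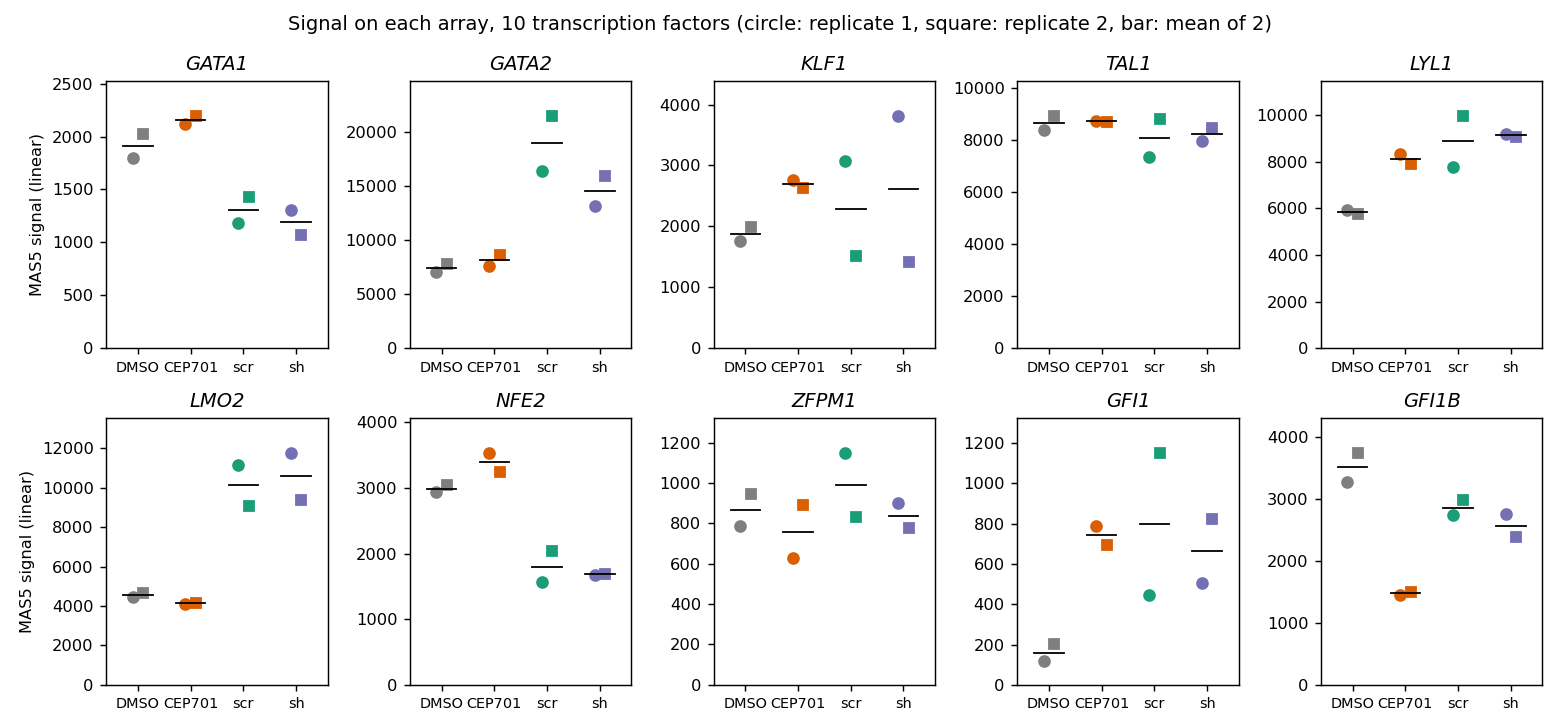
Linear MAS5 signal of the 10 transcription factors, 1 panel each with its own axis from 0, for DMSO, CEP701, scramble (scr) and PRMT5 shRNA (sh); points are arrays and bars the means of 2. GFI1 and GFI1B separate in opposite directions in the drug arm, and GATA1, GATA2, LMO2 and NFE2 separate by arm.

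The promoters of the members that passed in the drug comparison in either fit are shown because they differ in GATA words, the sequences that GATA1 and GATA2 bind. RefSeq windows (GRCh38.p14) were found for 8 of the 10 members, 13 windows in all. The 250 bases upstream of a start are given 5′ to 3′ on the gene's strand, with GATA words in capitals. The words searched on both strands were AGATAA as well as TGATAA, and their variants AGATAG as well as TGATAG. The search was chosen after the values were known.
GFI1B (chr9:132978444-132978693, + strand): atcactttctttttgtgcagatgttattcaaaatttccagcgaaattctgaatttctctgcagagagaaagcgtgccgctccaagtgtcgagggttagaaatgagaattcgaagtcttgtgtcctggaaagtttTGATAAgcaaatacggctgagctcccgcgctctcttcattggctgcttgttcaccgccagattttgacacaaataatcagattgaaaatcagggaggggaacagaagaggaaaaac
GFI1 (chr1:92486926-92487175, - strand): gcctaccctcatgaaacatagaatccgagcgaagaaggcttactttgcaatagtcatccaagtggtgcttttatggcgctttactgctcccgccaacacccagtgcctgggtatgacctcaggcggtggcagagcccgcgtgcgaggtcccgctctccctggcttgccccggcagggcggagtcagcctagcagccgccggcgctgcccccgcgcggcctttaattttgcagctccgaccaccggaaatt
LYL1 (chr19:13102859-13103108, - strand): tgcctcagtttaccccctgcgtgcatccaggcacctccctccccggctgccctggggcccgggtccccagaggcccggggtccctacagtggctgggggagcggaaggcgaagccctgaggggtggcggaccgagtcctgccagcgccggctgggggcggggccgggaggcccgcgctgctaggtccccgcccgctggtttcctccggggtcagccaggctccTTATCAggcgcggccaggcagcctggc
KLF1 (chr19:12887202-12887451, - strand): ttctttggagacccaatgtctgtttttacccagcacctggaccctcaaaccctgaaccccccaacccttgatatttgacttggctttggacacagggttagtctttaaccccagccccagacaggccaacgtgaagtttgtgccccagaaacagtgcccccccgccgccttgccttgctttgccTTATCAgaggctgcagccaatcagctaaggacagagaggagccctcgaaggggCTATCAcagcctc

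GFI1B, which fell, has 1 GATA word at this start, beginning 116 bases before it, and none in the window of its other start. GFI1, which rose, has none in the window shown, that of its start farthest upstream, or in those of its other 2 starts. LYL1 has 1, beginning 27 bases before its start, and KLF1 has 2, at 66 and 13 bases. TAL1, whose log2 difference with CEP701 was 0.01, has 1 as well, beginning 35 bases before 1 of its starts. In all, 4 of the 13 member windows hold a GATA word, as do 22.3% of the 35116 windows of all genes. AAATC, the core of the sequence GFI1 and GFI1B bind, occurs 2 times in the GFI1B window shown and 1 time in that of its other start, and in no other member window (29.9% of all windows hold it). The STAT word TTCNNNGAA was in none of the 13 member windows (6.57% of all windows) and neither was TGAGTCA, the core of the NFE2 sequence (4.20%). The KLF word CCNCNCCCN was in 8 of the 13 (53.3% of all) and the E-box CANNTG, which some of the other words can overlap, in 7 (61.8%). These are matches of letters, not measured binding.

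With CEP701 no partner gene passed in 3 of the 4 partner lists. These were 12 LDB1 complex partners and E proteins (median log2 difference 0.21; unadjusted p under 0.05 for 2 higher and 1 lower), 20 CoREST, NuRD and CtBP cofactors of GFI1, GFI1B and FOG1 (-0.04; 3 higher and 2 lower) and 7 NFE2 partners and relatives (-0.02; 1 higher). Of 16 other blood lineage factors, KLF3, a repressor that competes with KLF1 for its sites, rose by 1.26 (adjusted p = 0.0108) and CEBPA, a granulocyte factor, fell by 0.89 (adjusted p = 0.0358). KLF3 read 1440 and 1180 with DMSO and 3049 and 3234 with CEP701, and CEBPA 1331 and 1809 against 812 and 859.

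Among the genes listed as erythroid or megakaryocyte targets or as stem and progenitor genes, a few passed. Of 38 erythroid targets, 4 rose and 1 fell (median log2 difference 0.15), beside 3.74% and 2.04% of all genes. FECH, the last enzyme of haem synthesis, rose by 1.20, from 1646 and 1755 to 4075 and 3742, and ALAD, an early enzyme of that pathway, rose by 1.32. EPOR, the erythropoietin receptor, rose by 1.09, from 205 and 293 to 524 and 540, and ICAM4, a blood group adhesion protein, by 1.01. HBD, the delta globin, was lower, with a log2 difference of -0.81, though its probes may also take up the near-identical HBB. Of 29 megakaryocyte targets, 3 rose and none fell (median -0.13), beside those same shares. They were THBS1, which rose by 4.18, P2RX1, an ATP receptor of platelets, by 2.24 and SRGN, a granule proteoglycan, by 0.61. Of 11 stem and progenitor genes KIT, a GATA2 target and receptor of stem cell factor, rose by 1.95 (list median 0.34). With the replicate block in the shRNA arm these counts were 9 and 3 for erythroid targets, 8 and 7 for megakaryocyte targets, and 2 and 1 for stem and progenitor genes, higher and lower. That fit called 22.3% of all genes, 12.6% higher and 9.71% lower. They were then 2 and 1 for the LDB1 list, 3 and 1 for the CoREST list, 1 and 0 for the NFE2 list and 3 and 2 for other lineage factors.

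Knockdown of PRMT5 was followed by no call among the 10 factors. limma called 0 of 10, none had an unadjusted p under 0.05, and 0.148% of all genes were called, 0.00706% higher and 0.141% lower. The members' median log2 difference was -0.11, beside 0.00 for all genes. With the replicate block there was again no call among them.

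GATA2 came closest. It was measured at 16384 and 21487 with scramble and at 13185 and 15944 with PRMT5 shRNA. The knockdown arrays were the lower ones, both overall and within each pair that shares a title suffix (-0.31 and -0.43). The log2 difference was -0.37 ± 0.17 (SE; adjusted p = 0.748), and -0.51 at probe set 210358_x_at, where the arrays read 3123 and 3870 against 2338 and 2554. At the third, 207954_at, the values were 357 and 425 against 301 and 466 and overlapped. GATA2 was the 1 member of 10 whose arrays did not overlap, beside 30.2% of all genes.

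The pairs of the shRNA arm differed from each other by more than the knockdown did for several members. KLF1 was measured at 3068 with scramble and 3814 with PRMT5 shRNA in the first pair, and at 1517 and 1408 in the second. Its knockdown difference was 0.31 in the first pair and -0.11 in the second, while the gap between the 2 scramble arrays was 2.02-fold. GFI1 read 446 and 507 in the first pair and 1153 and 821 in the second, for a log2 difference of -0.15 (95% interval -1.12 to 0.81). Its interval leaves room for a 2-fold change, as does that of KLF1 (-0.86 to 1.07). GFI1B read 2733 and 2749 in the first pair and 2986 and 2378 in the second (-0.16; 95% interval -0.50 to 0.18).

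GATA1, at 1183 and 1430 with scramble and 1308 and 1072 with PRMT5 shRNA, was higher in one pair (0.14) and lower in the other (-0.41). LMO2 read 11150 and 9096 against 11787 and 9405, NFE2 1563 and 2034 against 1677 and 1689, and TAL1 7336 and 8788 against 7972 and 8471. LYL1 read 7793 and 9967 against 9193 and 9061, and ZFPM1 1151 and 832 against 902 and 776. The arrays of the groups overlapped for all 6, and their log2 differences ran from -0.22 to 0.06. No gene of the 7 partner and target lists passed with knockdown. At an unadjusted p under 0.05 there were 2 higher and 2 lower of 38 erythroid targets, 0 of 29 megakaryocyte targets, 1 lower of 11 stem and progenitor genes, 0 of 16 other lineage factors, 1 lower each of 12 LDB1 and 20 CoREST genes, and 1 higher and 2 lower of 7 NFE2 relatives. With the replicate block, 2 erythroid targets rose, and 1 NFE2 relative and 1 stem and progenitor gene fell, beside 1.74% of all genes, 0.318% higher and 1.43% lower.

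**Figure D4:**
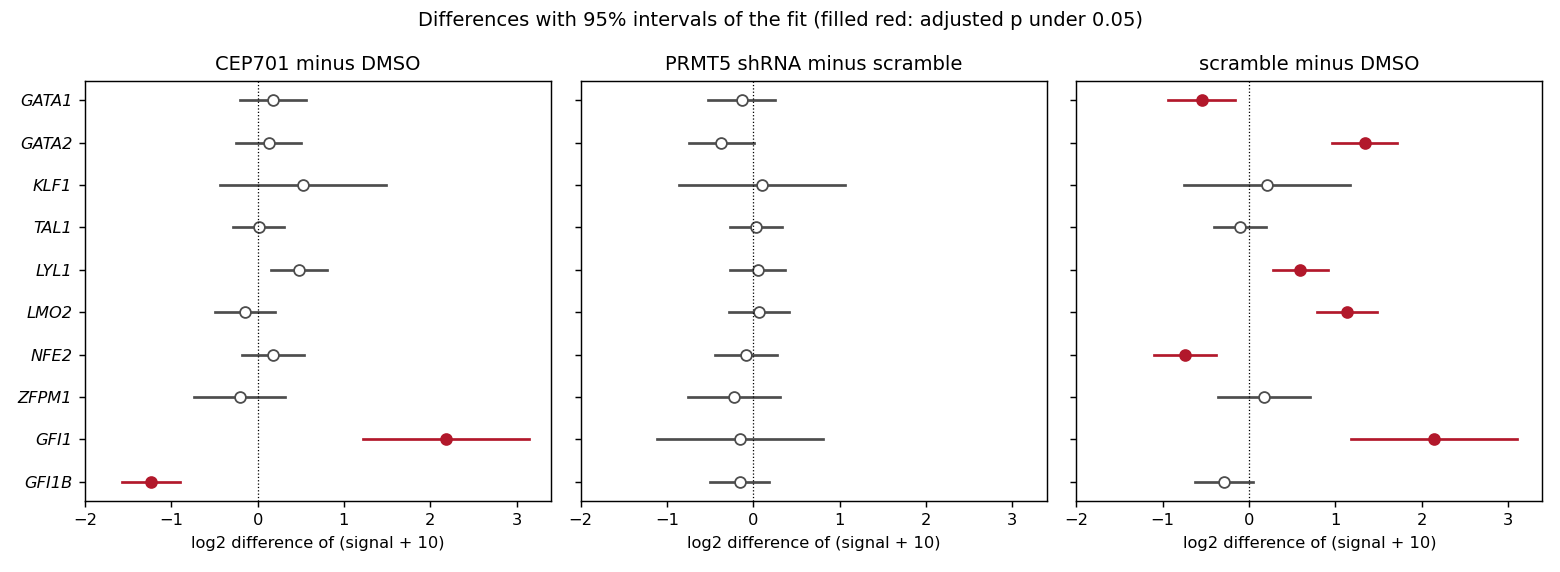
Log2 difference of (signal + 10) for the 10 factors in 3 comparisons, with 95% intervals of the limma fit; filled red points have an adjusted p under 0.05. With CEP701, 2 factors are filled, with PRMT5 shRNA none, and between the control groups 6.

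Across the arms, where treatment, lentivirus and cell identity cannot be told apart, GFI1B changed differently with CEP701 and with PRMT5 shRNA. Its PRMT5 shRNA effect minus its CEP701 effect was 1.08 ± 0.21 (SE; limma adjusted p = 0.0443) on the log2 scale, beside 1.43% of all genes called (0.325% higher and 1.11% lower), and 2.20 at the other probe set (adjusted p = 0.0482). That call was lost under quantile normalization (0.97; adjusted p = 0.0747), median scaling (1.31; 0.0541), no filter (0.0537) and no trend (0.143). It was also lost without DMSO replicate 1 (1.18) or 2 (0.98), CEP701 replicate 1 (1.06) or 2 (1.10), scramble replicate 2 (1.14) or PRMT5 shRNA replicate 1 (0.98). In each of those fits, with 1 array in a group, fewer of all genes passed than in the main fit. For GFI1 the difference was -2.34 ± 0.61 (adjusted p = 0.0912); it passed under poly-A scaling (-1.53; adjusted p = 0.0388) and without scramble replicate 1 (-3.01; adjusted p = 0.0203). With the replicate block GFI1 passed (adjusted p = 1.62e-03), GATA2 passed (-0.50; adjusted p = 0.0363) and GFI1B stayed past the threshold (adjusted p = 2.06e-03). None of the other 7 members passed in either fit. Of the partner and target genes THBS1 passed here, at -4.26 (adjusted p = 0.0132). With the replicate block, 2 erythroid targets were higher and 5 lower, 2 megakaryocyte targets higher and 9 lower, and 3 LDB1 genes and 3 stem and progenitor genes lower. There were also 2 other lineage factors higher and 2 lower, 1 CoREST gene each way and 1 NFE2 relative higher. That fit called 17.3% of all genes, 7.94% higher and 9.40% lower.

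Between the control groups, scramble against DMSO, 6 of the 10 factors passed, 4 higher and 2 lower. This stands beside 45.8% of all genes, 25.5% higher and 20.3% lower, so the share is near the background of the comparison. The arrays did not overlap for 7 members, 4 higher and 3 lower, beside 74.1% of all genes (40.8% higher and 33.2% lower). The arms' marker values are given above.

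GATA2 was 2.53-fold higher with scramble than with DMSO, at 16384 and 21487 against 7018 and 7819 (log2 difference 1.34; adjusted p = 1.97e-04). LMO2 was 2.20-fold higher, at 11150 and 9096 against 4465 and 4674 (adjusted p = 3.29e-04). NFE2 was 1.67-fold lower, at 1563 and 2034 against 2936 and 3042 (adjusted p = 4.50e-03). These 3 and GFI1 kept their calls in every alternative run, except GATA2 at probe set 207954_at.

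GFI1 was 4.41-fold higher with scramble, at 446 and 1153 against 119 and 201 (adjusted p = 2.90e-03), so its scramble arrays and its CEP701 arrays both lay above the DMSO arrays. The comparisons share those DMSO arrays. LYL1 was higher (0.60; adjusted p = 7.67e-03), a call that was lost under median scaling (0.23) and poly-A scaling (0.18), where the all-gene median was -0.23 and -0.29 in place of 0.11. It was also lost without DMSO replicate 2 (0.57) or scramble replicate 2 (0.42). GATA1 was 1.46-fold lower, at 1183 and 1430 against 1794 and 2023 (-0.55; adjusted p = 0.0266). That call was lost as the mean of both probe sets (-0.46), with no trend, and without DMSO replicate 1 (-0.63), DMSO replicate 2 (-0.46) or scramble replicate 1 (-0.41). GFI1B (-0.29), KLF1 (0.20), TAL1 (-0.11) and ZFPM1 (0.18) did not pass, and GFI1B passed under median scaling (-0.66) and poly-A scaling (-0.71).

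Probe sets of the same gene did not always move alike between the arms. At TAL1 the probe set of highest signal, 206283_s_at, read 7336 and 8788 with scramble and 8367 and 8919 with DMSO. Probe set 216925_s_at read 339 and 405 against 1484 and 1812 (log2 difference -2.12; adjusted p = 4.86e-05 over all probe sets), and 1561651_s_at read 95.9 and 124 against 445 and 402 (-1.86; adjusted p = 2.38e-04). The fourth, 216928_at, stayed under the filter's signal of 60.0 on all 8 arrays. With the mean of its probe sets TAL1 passed between the controls (-1.36), and with the used probe set it passed under median scaling (-0.47). So 1 TAL1 signal was level across the arms and 2 were lower in the shRNA arm, on PRMT5 shRNA arrays as well (291 and 397, and 134 and 151). In the drug arm 216925_s_at read 991 and 1083 with CEP701, below both DMSO arrays, and did not pass (-0.66; unadjusted p = 0.0122).

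LMO2 showed the same direction at both probe sets but not the same size. Probe set 231049_at read 1144 and 399 with scramble and 108 and 131 with DMSO (5.34-fold; adjusted p = 9.42e-03), and 1322 and 326 with PRMT5 shRNA. The first pair of the shRNA arm was thus well above the second at this probe set. GATA2 was higher at 210358_x_at (1.42; adjusted p = 2.03e-04) and did not pass at 207954_at (0.59; adjusted p = 0.104). GATA1 did not pass at 1555590_a_at (-0.37; adjusted p = 0.221). The second ZFPM1 probe set, 237463_at, was dim, at 8.56 to 87.8 over the 8 arrays, and passed in no comparison.

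**Figure D5:**
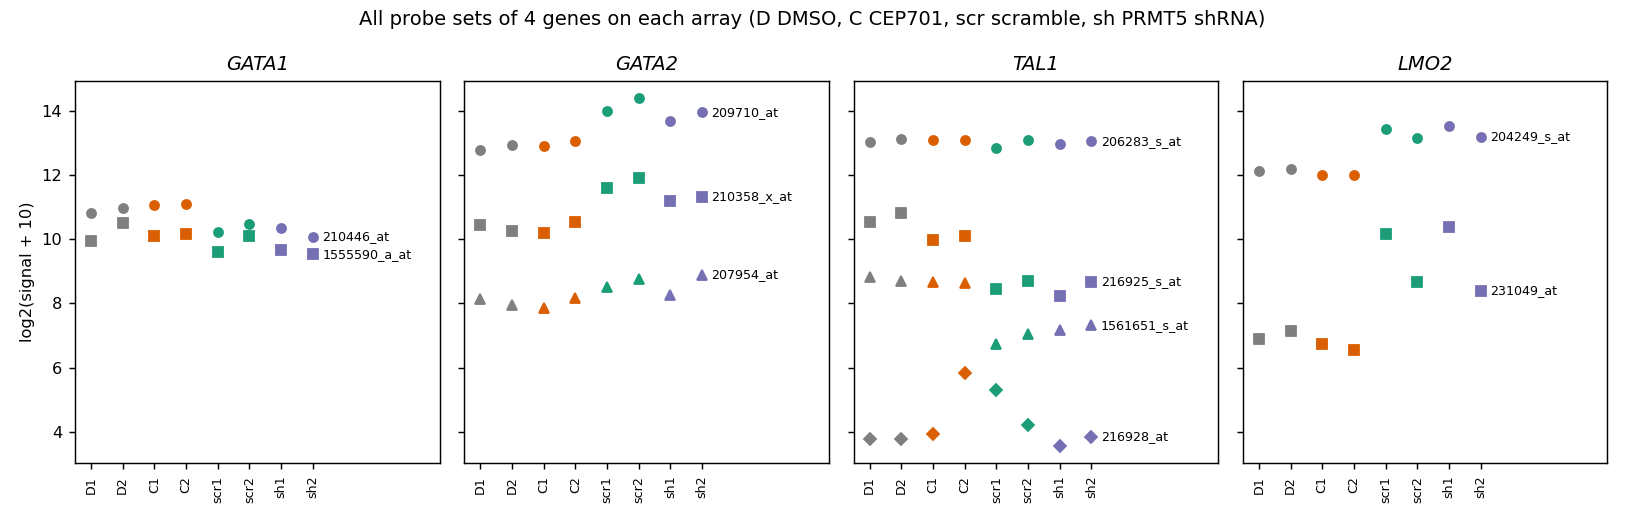
Values of log2(signal + 10) at every probe set of GATA1, GATA2, TAL1 and LMO2 on each array; marker shapes are probe sets and colours are groups. At TAL1 the top probe set is level over the 8 arrays while 216925_s_at and 1561651_s_at are lower on the 4 arrays of the shRNA arm.

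Partner and target genes also differed between the control groups. Of 7 NFE2 partners and relatives, 4 were higher and none lower (median log2 difference 1.29, beside 0.11 for all genes), with the small MAF proteins MAFF at 2.08 and MAFG at 1.29, the relative NFE2L3 at 3.45, and BACH2 at 1.35. Of 12 LDB1 partners and E proteins, 2 were higher and 4 lower (median -0.06). RUNX1T1, a corepressor of the same family as CBFA2T3, read 3906 and 4018 with DMSO and 25.4 and 24.0 with scramble, where it lies under the filter's signal. CBFA2T3, a corepressor of the TAL1 complex, read 2004 and 1420 with scramble against 3464 and 3311 with DMSO. The LDB1 stabiliser SSBP3 was at -1.80, and LMO4, a relative of LMO2, at 1.81. Of 20 CoREST, NuRD and CtBP cofactors, 3 were higher and 4 lower (median -0.06), among them KDM1A, the demethylase that GFI1 and GFI1B recruit, at -1.19, RBBP4 at -0.99, HDAC2 at -0.80 and PHF21A at 1.58.

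Of 38 erythroid targets, 7 were higher and 14 lower (median -0.37). TRIM10 was at -3.76 and the Rh blood group gene RHD, whose probes may take up RHCE, at -3.95. The adult globins HBD (5.12) and HBB (4.18), which share sequence, were higher. Of 29 megakaryocyte targets, 15 were higher and 1 lower (median 1.10), including the platelet chemokines PPBP (6.03) and PF4 (4.20), P2RX1 (4.29) and SRGN (1.75). Of 11 stem and progenitor genes, 6 were higher and 2 lower (median 1.95), with SPINK2 at 5.28, HMGA2 at 3.90, SOX4 at 3.42 and MECOM at -2.32. Of 16 other lineage factors, 5 were higher and 4 lower (median 0.33), with ZBTB7A, a globin repressor, at 1.33, IKZF1 at 0.98, MEF2C at -1.39 and CEBPA at -1.46. These counts, too, stand beside 45.8% of all genes. With the replicate block they were 17 higher and 5 lower for megakaryocyte targets, 8 and 19 for erythroid targets, 6 and 2 for stem and progenitor genes and 8 and 5 for other lineage factors. They were 3 and 5 for LDB1 genes, 5 and 4 for CoREST genes and 4 and 0 for NFE2 relatives, beside 55.1% of all genes, 29.9% higher and 25.2% lower.

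For the 3 members of lowest p with CEP701, the genes most like them were found by Pearson's r over the 8 arrays after each arm's mean log2 value was taken off. The arrays are shared and few, so r is a description. Nearest to GFI1B were CMTM7 (r = 0.993), MAPK6 (0.990) and MYDGF (0.987). CMTM7 read 1491 and 1708 with DMSO, 926 and 943 with CEP701, and 1505 to 1729 in the shRNA arm. Nearest to GFI1 were CUL4B (0.995), ZFYVE1 (0.991) and EPG5 (0.990). CUL4B read 902 and 1001 with DMSO, 1599 and 1478 with CEP701, and 1706 and 2396 with scramble. Nearest to LYL1 were SURF1 (0.995, although its shRNA arm signals of 1892 to 2858 lay below its drug arm's 3289 to 5921), HPS4 (0.984) and ANKRD49 (0.982).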

How the data were processed

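Total RNA (200 ng, per the labels) was hybridized to 8 Affymetrix arrays with 54675 probe sets. The deposited intensity values are linear MAS5 signals; the submitters' processing notes name Affymetrix Expression Console, without its version. Each array has the same mean without the lowest and highest 2% of values. Of the probe sets, 41097 name 1 gene, 1801 several and 11777 none; the latter kinds were left out, and symbols were updated through RefSeq (GRCh38.p14).

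From the deposited intensity, log2(signal + 10) was computed, and a probe set was kept where 2 or more arrays exceeded 60.0, the overall median signal. Each gene took its probe set of highest mean log2 value. limma 3.58.1 (R 4.3.3; eBayes with a trend; 4 residual and 5.37 prior degrees of freedom) fitted 4 groups. The calculation was tested on simulated data. Promoter words and figures used Python 3.11.15. Members, lists and tests were chosen with earlier results of these data known. Named genes are the 10 members, PRMT5, up to 4 called genes per list and comparison by lowest p, and the 3 most alike genes of 3 members; the cell type markers given were added after their values were seen. HBD with CEP701 ranked after the 4 and was also added then. The shRNA arrays pair by a shared title suffix, and deviations of paired arrays from group means correlated (r = 0.323 across genes; -0.0115 in the drug arm, which shares only numbers). Alternatives varied scaling, pseudocount, filter, probe set choice, variance trend, arrays fitted, the replicate block and single arrays.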

Additional observations from a re-analysis of the deposited data

Results flagged for a closer look

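GFI1B is listed for a closer look because its change with CEP701 differed from its change with PRMT5 shRNA by a test of the difference. That test crosses the arms, where treatment, lentivirus and cell identity cannot be told apart. Its call was lost in several of the alternatives given above. The PRMT5 shRNA effect minus the CEP701 effect was 1.08 on the log2 scale at probe set 237403_at (limma adjusted p = 0.0443) and 2.20 at probe set 208501_at (adjusted p = 0.0482 over all probe sets kept). At the first both CEP701 arrays lay below both DMSO arrays, and the PRMT5 shRNA arrays overlapped the scramble arrays.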

How the results depend on the processing

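The members' log2 differences were recomputed under 22 alternatives, which gave 902 values. Of these, 851 stayed on their side of the threshold, 30 lost a call and 21 gained one; no called difference changed sign, and 69 values under the threshold on both sides did. With CEP701 the count of members called was 2, beside 819 of 14162 genes. It was 1 under quantile normalization (455 genes) and with no variance trend (167), and 3 under poly-A scaling (3176). It was 4 on the drug arm's arrays alone (3492 of 12487 genes), and 4 with the replicate block in the shRNA arm (3155) or in both arms (3040). Leaving out 1 array, which leaves 1 in that group, could change the count of members and also that of all genes. For the difference of effects the count was 1, beside 203 genes. It was 0 under quantile normalization (115 genes), median scaling (107), no filter (132 of 19775) and no trend (0). It was 2 under poly-A scaling (2171), and 3 with the replicate block in the shRNA arm (2456) or in both arms (2296). Leaving out 1 array could also change it. Between the controls it was 6, beside 6486 genes, with 7 under median scaling (6691) and 5 with no trend (5877). It could also change without 1 array, as could the count of all genes. With PRMT5 shRNA it was 0 throughout. Over all genes, the calls ran from 6 to 3492 with CEP701 (819 in the main calculation), 0 to 247 with PRMT5 shRNA (21), 0 to 2456 for the difference (203) and 4526 to 11136 between the controls (6486, with the highest from probe sets tested singly). The replicate block changed no other call of a member than those given with the results. A gene near or under the filter's signal, such as TAL1 at 216928_at, has no fold that could be read.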
